A study of Mus musculus with 6 samples.

Results

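The genes described here are a fixed list of 39 antioxidant, thioredoxin and NADPH oxidase genes, of the 41721 genes in a count table of mouse aortic smooth muscle cells (MASMCs) with and without pyruvate dehydrogenase kinase 4 (PDK4). A gene was a member if its symbol in the table was on the list, which took 37 genes, and 36 of them had enough counts to be tested. *Nox1* did not, *Txnrd1* is in the table only by its description, and *Sod2* only as 2 unannotated loci, so the last 2 are given apart from the counts below. MASMCs were isolated by collagenase digestion from the abdominal aorta of 10-week-old mice on a C57BL/6J background, either Pdk4fl/fl (3 libraries) or Pdk4SMKO (3 libraries), and all 6 cultures were treated with angiotensin II (Ang II). Both genotypes carry loxP sites around exons 4, 5 and 6 of *Pdk4*, and mice of both received tamoxifen at 75 mg/kg per day for 5 days. Pdk4SMKO mice in addition carry Myh11-CreERT2, a tamoxifen-dependent Cre driven by the smooth muscle *Myh11* promoter and inserted on the Y chromosome. The study's methods give 1 μM Ang II for 48 h and cells of passages 4 to 8, whereas the labels name Ang II alone. No untreated cultures are in this series, so each comparison is between genotypes under Ang II.

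Cells make superoxide and hydrogen peroxide in the mitochondrial respiratory chain and at NADPH oxidases, and in vascular smooth muscle NOX1 and NOX4, with the membrane subunit p22phox (*Cyba*), are the main oxidases that Ang II acts on. Superoxide dismutases turn superoxide into peroxide, and catalase, the glutathione peroxidases and the peroxiredoxins remove it, the last 2 at the cost of reduced glutathione or thioredoxin, which are restored with NADPH. Much of this system is under the transcription factor NRF2 (*Nfe2l2*), held low by KEAP1 and set free when KEAP1's cysteines are modified. TXNIP binds reduced thioredoxin, and is itself best known as a gene that rises with glucose.

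The 6 libraries held 16526044 to 22481670 counts each. *Pdk4* had 570, 639 and 421 counts in Pdk4fl/fl and 110, 182 and 141 in Pdk4SMKO, which is 19.8% of the Pdk4fl/fl level in CPM (counts scaled to a common library total after TMM normalization). *Xist*, the RNA of the inactive X chromosome, had 3, 4 and 5 counts in Pdk4fl/fl and 610, 347 and 321 in Pdk4SMKO, although the methods name male mice only and the Cre transgene is Y-linked. The table lists no Y chromosome gene, so the sex of the cultures cannot be told apart from genotype in any result below. Of 8 smooth muscle genes, 4 were higher in Pdk4SMKO (*Acta2* among them, 233 and 701 CPM) and 3 lower (*Tagln*, 253 and 52.7 CPM), and *Myh11* had 8 to 10 counts in the Pdk4fl/fl libraries and 44 to 62 in the others. All 7 mesothelial genes tested were higher in Pdk4SMKO (list total 74.2 to 99.99 CPM against 723 to 1325). Of 6 fibroblast genes 3 were higher and 1 lower (*Dpt*, 21.1 and 10.5 CPM), and their total (626 to 855 against 5152 to 7054 CPM) was mostly *Col1a1* (620 and 5901 CPM). Of 7 macrophage genes, *Adgre1*, *C1qa*, *C1qb* and *Tyrobp* were at 0 in every Pdk4fl/fl library and had 11 to 170 counts in the Pdk4SMKO libraries, while *Cd68* was lower there (31.2 and 4.30 CPM). The part of any of these cells in the results was not tested, and in bulk libraries fewer cells of a type and less RNA per cell cannot be told apart.

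The call of a gene required at least a 2-fold difference and an adjusted p under 0.05 in edgeR's quasi-likelihood test, with the adjustment made over 14085 genes. By this rule 59.3% of all genes tested were called, 26.5% lower in Pdk4SMKO and 32.8% higher. Of the 36 members, 12 fell and 10 rose, 61.1% in all, which is close to the share among all genes. A large change in either direction is therefore common in this comparison, and the members are described below by which of them moved and how far. By the adjusted p alone 31 members passed, 20 lower and 11 higher, against 79.1% of all genes (37.1% lower and 42.0% higher). The genotypes did not overlap for 31 of 36 members, against 81.8% of all genes. The median log2 fold change (Pdk4SMKO over Pdk4fl/fl) was -0.50 for the members and 0.12 for all genes.

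Most members that fell had high levels per length in Pdk4fl/fl and a fold change near the 2-fold limit, and most of those that rose had low levels and moved further. The 12 that fell were *Hmox1*, *Gss*, *Gpx7*, *Prdx1*, *Prdx2*, *Prdx4*, *Txn1*, *Txnip*, *Sod1*, *Mt1*, *Nox4* and *Cyba*. Their median level per length was 164 CPM per kb in Pdk4fl/fl and 75.1 in Pdk4SMKO, and 11 of them had a log2 fold change above -2. The 10 that rose were *Nfe2l1*, *Keap1*, *Nqo1*, *Srxn1*, *Gclc*, *Gsr*, *Gpx3*, *Mgst1*, *Glrx* and *Sod3*. Their median level was 5.44 CPM per kb in Pdk4fl/fl and 27.1 in Pdk4SMKO, and 6 of them had a log2 fold change above 2. Among all genes, 2645 of the 4616 higher calls and 1765 of the 3733 lower calls passed a 4-fold limit. The Pdk4fl/fl level is also the base of the fold change, so level and direction are linked in part by construction. Levels of called genes outside the list were not compared. Among the 14 not called, 9 passed the adjusted p but not the 2-fold limit and 5 (*Gclm*, *Gpx8*, *Prdx3*, *Prdx5* and *Mt2*) missed both.

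**Figure D1:**
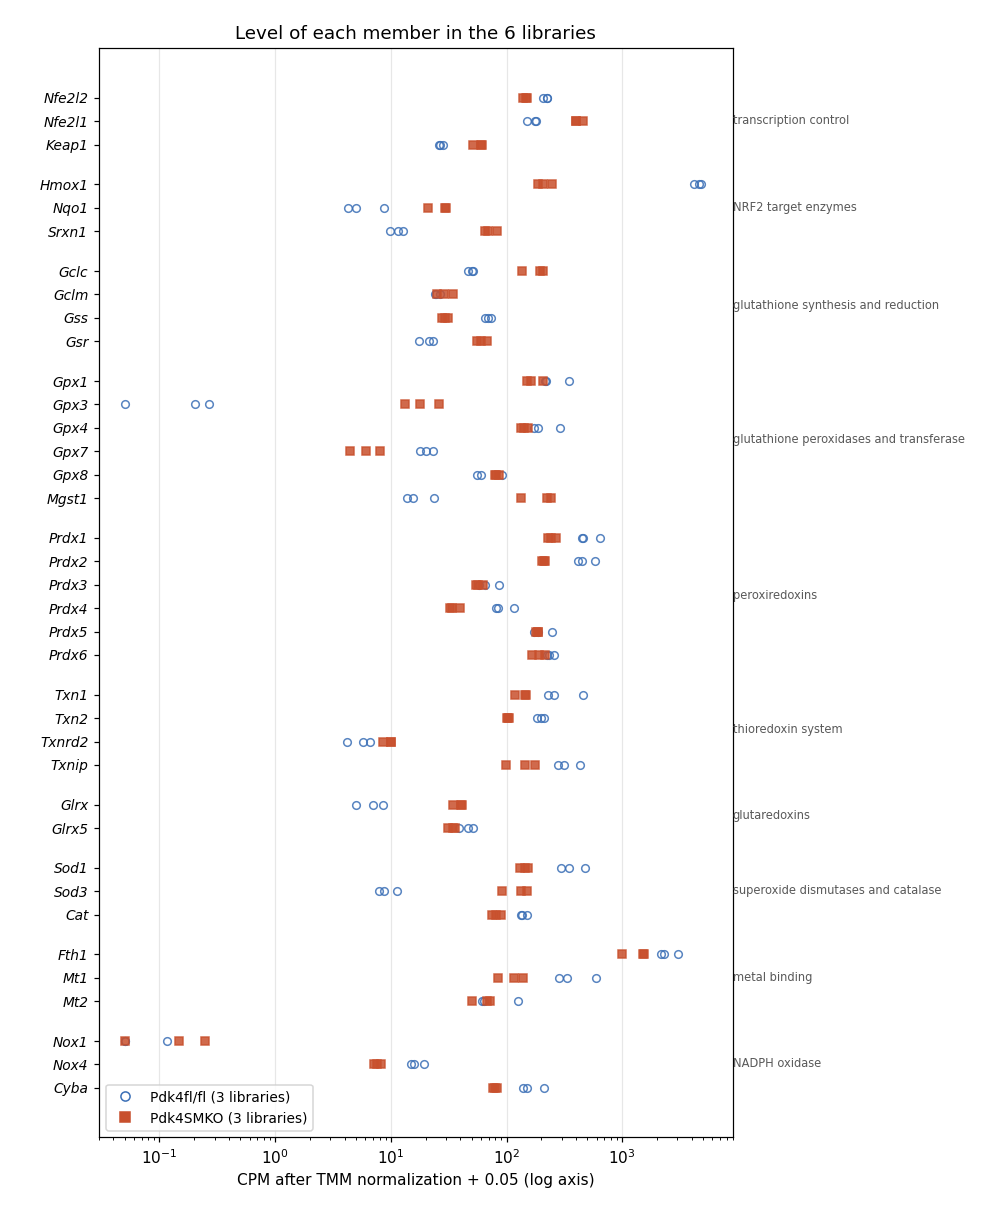
Level of the 37 members in each library, as CPM after TMM normalization plus 0.05 on a log axis, with 3 Pdk4fl/fl libraries (circles) and 3 Pdk4SMKO libraries (squares) per gene, grouped by role. *Hmox1* drops from a mean of 4506 to 214 CPM, and *Gpx3* goes the other way, from 0 to 4 counts in the Pdk4fl/fl libraries to 270 to 593 in the others.

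NRF2 and its relatives bind with small MAF proteins at the antioxidant response element, whose core reads TGACNNNGC, and promoter sequences were searched for it as a description. Windows from 250 bases before to 50 bases after the start site (RefSeq, GRCm38.p6) were at hand for 34 of the 39 listed genes and not for *Hmox1*, *Gclc*, *Gsr*, *Prdx6* and *Sod3*. The core was found, on either strand, in 1 window each of 8 listed genes. The 29 bases around each match are printed below in the direction of transcription, with the core, or its reverse complement where it lies on the other strand, in capitals. Their positions are chr2:75704885-75704913 (minus strand) for *Nfe2l2*, chr2:152105542-152105570 (plus) for *Srxn1*, chr3:122245413-122245441 (plus) for *Gclm*, chr6:138140461-138140489 (plus) for *Mgst1*, chr4:116685456-116685484 (plus) for *Prdx1*, chr10:82859104-82859132 (plus) for *Txnrd1*, chr16:90220696-90220724 (plus) for *Sod1* and chr8:94172529-94172557 (plus) for *Mt2*.
Nfe2l2: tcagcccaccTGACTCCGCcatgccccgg
Srxn1: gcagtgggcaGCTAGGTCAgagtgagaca
Gclm: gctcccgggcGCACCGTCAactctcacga
Mgst1: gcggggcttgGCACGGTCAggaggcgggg
Prdx1: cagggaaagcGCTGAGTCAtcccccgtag
Txnrd1: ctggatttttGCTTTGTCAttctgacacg
Sod1: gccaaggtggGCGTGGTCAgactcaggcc
Mt2: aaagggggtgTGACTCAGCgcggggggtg
The matches in *Prdx1* and *Mt2* overlap an AP-1 site (TGANTCA). Of the 46 windows of listed genes 17.4% held the core, against 12.4% of 32851 windows of all genes, so the letters alone are common. Among the 8 genes *Srxn1*, *Mgst1* and *Txnrd1* rose, *Prdx1* and *Sod1* fell, and *Nfe2l2*, *Gclm* and *Mt2* were not called. A match is a description of the letters and not a site shown to be bound.

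Of the 3 genes of transcription control, the repressor and a relative of NRF2 rose, and *Nfe2l2* itself did not pass the 2-fold limit. *Nfe2l2* had 3382, 4104 and 2739 counts in Pdk4fl/fl and 3386, 2800 and 3086 in Pdk4SMKO, that is 219 ± 10.5 and 146 ± 6.32 CPM (SD, n = 3), a log2 fold change of -0.58 ± 0.11 (SE, adjusted p = 5.81e-04) that rests on the scaling, being 0.0226 with library size alone (adjusted p = 0.863). *Keap1* had 400, 478 and 376 counts against 1391, 1196 and 1051, and rose 2.12-fold to 57.4 ± 5.10 CPM (SD, n = 3, adjusted p = 2.13e-05). *Nfe2l1*, whose protein NRF1 sits in the endoplasmic reticulum and is best known for driving proteasome genes, had 2685, 3238 and 2002 counts against 9093, 9121 and 8204 and rose 2.47-fold. The ratio of *Nfe2l1* to *Nfe2l2* counts within a library was 0.731 to 0.794 in Pdk4fl/fl and 2.66 to 3.26 in Pdk4SMKO, and that of *Keap1* to *Nfe2l2* was 0.117 to 0.137 and 0.341 to 0.427. With the trend of gene length removed from each library, *Keap1* and *Nfe2l1* stayed above 0 but under the 2-fold limit, at 0.79 and 0.95 on the log2 scale.

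The 3 enzymes best known as NRF2 targets went in opposite directions. *Hmox1* encodes heme oxygenase 1, which breaks down heme and is repressed by BACH1. *Bach1*, named after its values were seen, was lower in Pdk4SMKO (143 and 39.7 CPM, log2 fold change -1.85, adjusted p = 6e-07). Any part of *Bach1* in the level of *Hmox1* was not tested. *Hmox1* (MGP_C57BL6NJ_G0034291, at 78476857 to 78486030 on the plus strand of chromosome 8 in the table) had 62090, 87529 and 60436 counts in Pdk4fl/fl and 5670, 4179 and 3801 in Pdk4SMKO. This was a fall from 4506 ± 339 to 214 ± 31.7 CPM (SD, n = 3), 21.0-fold, with a log2 fold change of -4.39 ± 0.17 (SE, adjusted p = 1.82e-08), and the lowest value of any member. *Hmox1* made up 33.6% to 42.1% of the summed CPM of all members in the Pdk4fl/fl libraries and 3.43% to 5.22% in the Pdk4SMKO libraries. These are shares of counts, without regard to transcript length. Per kb *Fth1* stood above *Hmox1* in Pdk4fl/fl (2876 and 2085 CPM per kb). It is a gene that macrophages use heavily. In the libraries where it was high 4 of the 7 macrophage markers were at 0, while *Cd68* was higher than in Pdk4SMKO. The part of such cells in the level of *Hmox1* was not tested.

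*Nqo1*, a quinone reductase, had 63, 90 and 115 counts in Pdk4fl/fl and 668, 416 and 608 in Pdk4SMKO. It rose 4.47-fold from a low level, 5.95 ± 2.41 CPM (SD, n = 3). *Srxn1*, sulfiredoxin, which restores over-oxidized peroxiredoxins, had 190, 208 and 129 counts against 1868, 1296 and 1401 and rose 6.36-fold to 71.8 ± 9.14 CPM (SD, n = 3, adjusted p = 1.82e-07). The ratio of *Hmox1* to *Nqo1* counts within a library, in which library size cancels, was 986, 972 and 526 in Pdk4fl/fl and 8.49, 10.1 and 6.25 in Pdk4SMKO. The ratio of *Srxn1* to its substrate gene *Prdx1* was 0.0276, 0.0253 and 0.0152 against 0.360, 0.265 and 0.256. Both ratios were separated between genotypes with no overlap, and 8 of the 10 ratios examined were; 3 against 3 libraries allow no exact two-sided permutation p below 0.1, and the adjusted p over the 10 was 0.125 for these 8.

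**Figure D2:**
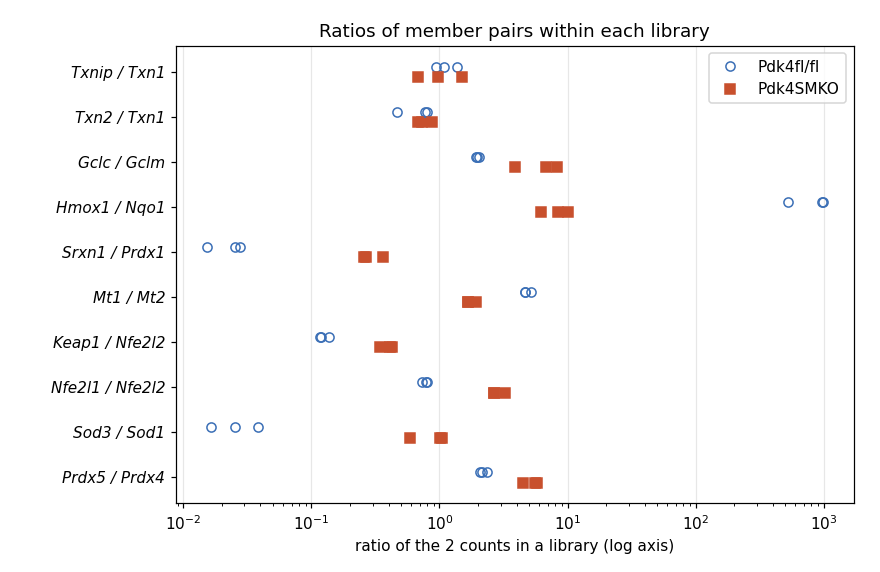
Ratio of the counts of 2 members within each library, on a log axis, for 10 pairs chosen after their values had been seen, with 3 Pdk4fl/fl libraries (circles) and 3 Pdk4SMKO libraries (squares) per pair. The genotypes overlap for *Txnip* / *Txn1* and *Txn2* / *Txn1* and are apart for the other 8, most widely for *Hmox1* / *Nqo1*.

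In glutathione synthesis the catalytic subunit of the first enzyme rose, and its partner was not called. *Gclc*, the catalytic subunit of glutamate-cysteine ligase, had 776, 916 and 619 counts in Pdk4fl/fl and 3073, 3935 and 4217 in Pdk4SMKO, a rise of 3.61-fold to 179 ± 38.8 CPM (SD, n = 3, adjusted p = 3.37e-06). *Gclm*, the modifier subunit, had 398, 447 and 319 counts against 785, 576 and 513, which after normalization overlapped (25.1 ± 1.28 and 29.4 ± 4.70 CPM, log2 fold change 0.23, 95% interval -0.10 to 0.57, adjusted p = 0.181). *Gclc* thus had 1.94 to 2.05 counts per *Gclm* count in Pdk4fl/fl and 3.92, 6.83 and 8.22 in Pdk4SMKO, and the Pdk4SMKO libraries differed among themselves by more than the 3 Pdk4fl/fl libraries did. *Gss*, glutathione synthetase, had 979, 1270 and 973 counts against 707, 586 and 558 and fell to 42.0% of its Pdk4fl/fl level. It overlaps *Acss2* on the other strand, whose counts were 26.8% of its own, and whether the counting used strand is not given in the sources used here. *Gsr*, the reductase that restores glutathione with NADPH, had 349, 391 and 233 counts against 1531, 1120 and 1216 and rose 2.93-fold.

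Of the glutathione peroxidases, the secreted one rose, one of the endoplasmic reticulum fell, and the 2 common intracellular ones did not pass the 2-fold limit. *Gpx3*, the secreted plasma form, had 0, 4 and 2 counts in Pdk4fl/fl and 593, 356 and 270 in Pdk4SMKO (19.0 ± 6.49 CPM, SD, n = 3). Its log2 fold change of 7.13 (95% interval 6.01 to 8.25, adjusted p = 5.95e-07) was the highest of the members, and it rests on 6 counts in the 3 Pdk4fl/fl libraries together. *Gpx7*, of the endoplasmic reticulum, had 301, 326 and 305 counts against 181, 89 and 123 and fell to 30.2%. *Gpx8*, its relative in the same compartment, had 834, 1090 and 1199 counts against 1863, 1581 and 1764, and overlapped after normalization (68.7 ± 19.2 and 82.3 ± 3.96 CPM, adjusted p = 0.201). *Gpx1*, the cytosolic enzyme, and *Gpx4*, which acts on lipid peroxides, each had a log2 fold change of -0.59 (adjusted p = 0.0203 and 0.0141). *Mgst1*, a membrane glutathione transferase that also acts as a peroxidase, had 205, 280 and 309 counts against 3026, 4513 and 4955 and rose 11.5-fold, from 17.5 ± 5.19 to 200.2 ± 59.0 CPM (SD, n = 3).

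Of the 6 peroxiredoxins 3 fell and none rose. *Prdx1*, cytosolic, had 6878, 8233 and 8463 counts in Pdk4fl/fl and 5189, 4892 and 5481 in Pdk4SMKO and fell to 47.7% (517 ± 107 and 247 ± 20.7 CPM, SD, n = 3, adjusted p = 1.22e-04). *Prdx2*, also cytosolic, had 6252, 8215 and 7712 counts against 4943, 4046 and 4316 and fell to 43.4%. *Prdx4*, the form of the endoplasmic reticulum, whose gene is on the X chromosome, had 1265, 1465 and 1547 counts against 898, 678 and 658 and fell to 37.4%, the furthest of the family. *Prdx6*, the 1-cysteine form that uses glutathione, had a log2 fold change of -0.33 (adjusted p = 0.0378). The mitochondrial forms *Prdx3* (873, 1187 and 1142 against 1236, 1147 and 1272 counts) and *Prdx5* (2614, 3414 and 3299 against 4057, 3750 and 3802) overlapped between genotypes after normalization, with 95% intervals of -0.62 to 0.08 and -0.47 to 0.17 on the log2 scale. The family's summed level was 1416 to 1936 CPM in Pdk4fl/fl and 888 to 952 CPM in Pdk4SMKO. The call of *Prdx1* was lost without Pdk4fl/fl replicate 3 (log2 fold change -0.90), which was the highest of its genotype for 27 of the 36 members. The same share over all genes was not counted, so the 27 cannot be read as particular to the members.

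In the thioredoxin system the cytosolic protein and its binding partner TXNIP fell together, and the reductase rose. *Txn1*, cytosolic thioredoxin, had 3455, 4714 and 6030 counts in Pdk4fl/fl and 3310, 2361 and 2996 in Pdk4SMKO, a fall from 315 ± 123 to 137 ± 16.6 CPM (SD, n = 3, log2 fold change -1.21 ± 0.24, adjusted p = 8.55e-04). Without Pdk4fl/fl replicate 3, the highest, this was -0.86 and under the 2-fold limit. *Txnip* had 4705, 5098 and 5664 counts against 2235, 3514 and 2938, a fall from 341 ± 78.0 to 139 ± 38.6 CPM (SD, n = 3, log2 fold change -1.29 ± 0.22, adjusted p = 3.53e-04). The ratio of *Txnip* to *Txn1* counts was 1.36, 1.08 and 0.939 in Pdk4fl/fl and 0.675, 1.49 and 0.981 in Pdk4SMKO, so the genotypes overlapped (exact two-sided permutation p = 0.7).

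*Txn2*, the mitochondrial thioredoxin, had a log2 fold change of -0.94 (95% interval -1.19 to -0.69), just short of the 2-fold limit. Its reductase *Txnrd2* had few counts, 62, 103 and 86 against 192, 199 and 205, with a log2 fold change of 0.80 (adjusted p = 0.00706). *Txnrd1*, the cytosolic reductase, matched through its description (MGP_C57BL6NJ_G0017981) and not by symbol, had 2228, 2490 and 1722 counts against 8188, 7088 and 7697. It rose 2.62-fold from 138 ± 9.24 to 363 ± 12.9 CPM (SD, n = 3, adjusted p = 1.55e-06), with little spread in either genotype. Of the glutaredoxins, which reduce mixed disulfides with glutathione, the cytosolic *Glrx* had 105, 91 and 112 counts against 782, 816 and 835 and rose 5.66-fold. The mitochondrial *Glrx5*, of iron-sulfur cluster assembly, had a log2 fold change of -0.43 (adjusted p = 0.0177).

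**Figure D3:**
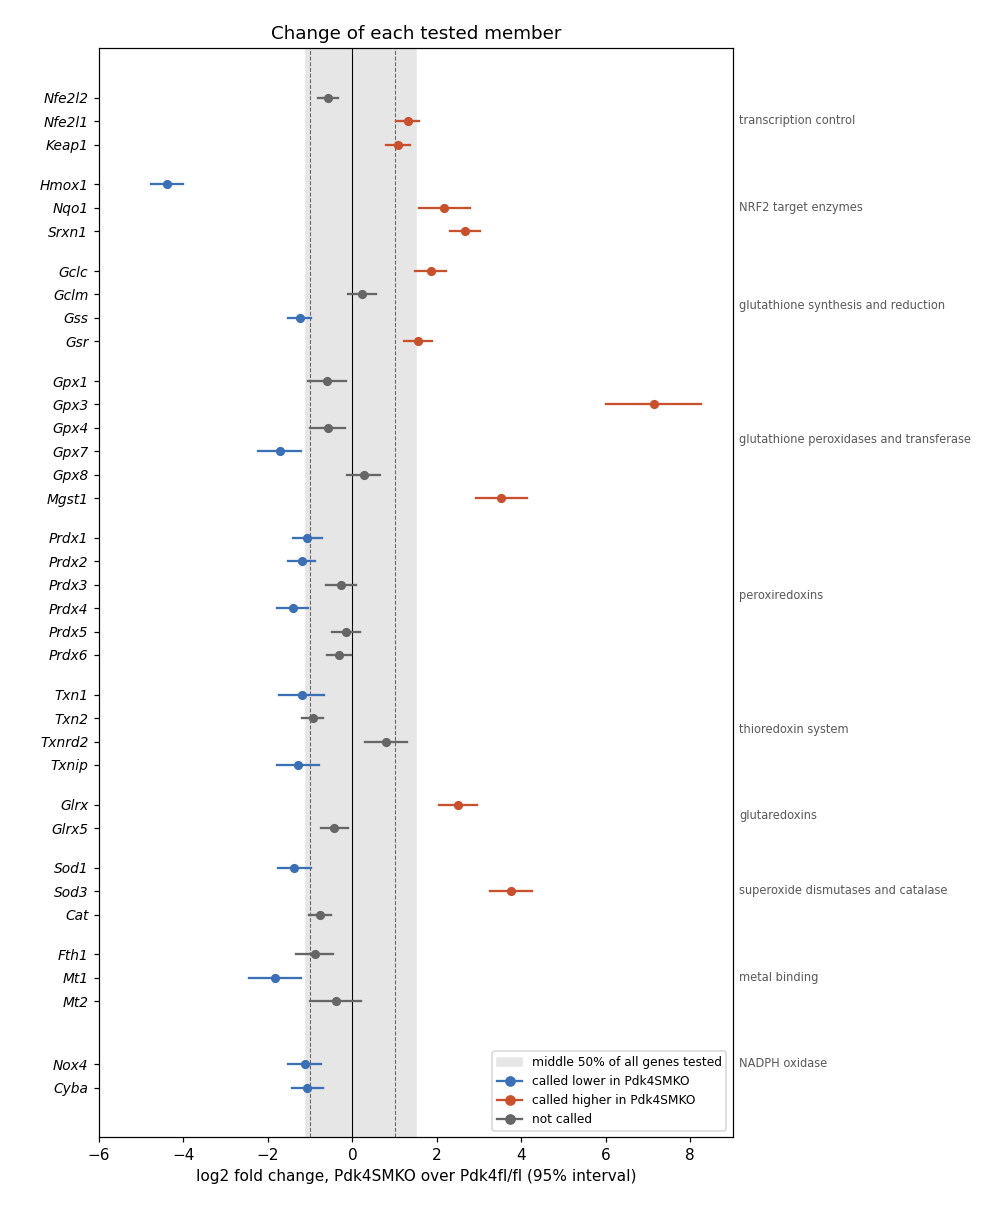
Log2 fold change of each of the 36 members tested, Pdk4SMKO over Pdk4fl/fl, with its 95% interval and grouped by role; dashed lines mark the 2-fold limit and the shaded band the middle 50% of all 14085 genes tested. Members called lower lie mostly just beyond the lower limit, with *Hmox1* apart at -4.39, and those called higher spread up to *Gpx3* at 7.13.

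The superoxide dismutase of the cytosol fell and the secreted one rose. *Sod1* had 4413, 6298 and 6310 counts in Pdk4fl/fl and 3283, 2645 and 3153 in Pdk4SMKO and fell to 38.5% (372 ± 94.5 and 144 ± 11.5 CPM, SD, n = 3, adjusted p = 4.31e-05). *Sod3*, which is bound outside the cell and is abundant in the vessel wall, had 170, 159 and 104 counts against 3451, 2673 and 1868 and rose 13.5-fold to 125 ± 30.7 CPM (SD, n = 3, adjusted p = 1.91e-07). There were 0.0165 to 0.0385 counts of *Sod3* per *Sod1* count in Pdk4fl/fl and 0.593 to 1.05 in Pdk4SMKO. *Sod2*, the mitochondrial enzyme, was matched by description to 2 unannotated loci of 662, 943 and 681 against 462, 417 and 385 counts and of 436, 563 and 666 against 386, 397 and 454 counts. Neither was taken as the level of the gene. *Cat*, catalase, had a log2 fold change of -0.77 (95% interval -1.04 to -0.50, adjusted p = 1.68e-04). *Sod3*, *Gpx3* and *Mgst1*, the members that rose furthest, rose beside the mesothelial markers and 3 of the 6 fibroblast markers given above. Across the Pdk4SMKO libraries the mesothelial total was 1325, 722.6 and 828.5 CPM. *Gpx3* (26.04, 17.72 and 13.25 CPM) and *Sod3* (151.5, 133 and 91.64) were also highest in replicate 1, where *Mgst1* was lowest (132.9, 224.6 and 243.1). The part of such cells in these values was not tested.

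Of the 2 neighbouring metallothionein genes one fell, and the other was not called. Metallothioneins bind zinc and copper and are switched on by MTF1 at metal response elements. *Mt1* had 4268, 6048 and 7814 counts in Pdk4fl/fl and 1902, 2314 and 2840 in Pdk4SMKO and fell to 28.0% (403 ± 165 and 113 ± 28.0 CPM, SD, n = 3, adjusted p = 1.44e-04). *Mt2* had 915, 1165 and 1676 counts against 1140, 1373 and 1476 and overlapped (83.9 ± 37.2 and 63.6 ± 11.9 CPM, adjusted p = 0.195). The ratio of *Mt1* to *Mt2* counts was 4.66, 5.19 and 4.66 in the Pdk4fl/fl libraries and 1.67, 1.69 and 1.92 in the Pdk4SMKO libraries (exact two-sided permutation p = 0.1, the smallest that 3 against 3 libraries allow). *Fth1*, ferritin heavy chain, which stores iron, had 2491 ± 456 CPM in Pdk4fl/fl and 1343 ± 302 CPM in Pdk4SMKO (SD, n = 3), a log2 fold change of -0.89 (adjusted p = 0.00181).

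The windows of both metallothionein genes are shown because these neighbours did not share a call. They run from 250 bases before the start site, with the metal response element cores TGCACNC and TGCGCNC, on either strand, in capitals. The *Mt1* window is chr8:94178839-94179118 and the *Mt2* window chr8:94172368-94172647, both on the plus strand of GRCm38.p6.
Mt1: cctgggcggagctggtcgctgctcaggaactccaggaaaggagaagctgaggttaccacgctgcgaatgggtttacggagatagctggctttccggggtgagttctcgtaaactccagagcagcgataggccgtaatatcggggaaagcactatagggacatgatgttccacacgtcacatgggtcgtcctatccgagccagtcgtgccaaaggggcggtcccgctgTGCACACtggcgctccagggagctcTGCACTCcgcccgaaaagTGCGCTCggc
Mt2: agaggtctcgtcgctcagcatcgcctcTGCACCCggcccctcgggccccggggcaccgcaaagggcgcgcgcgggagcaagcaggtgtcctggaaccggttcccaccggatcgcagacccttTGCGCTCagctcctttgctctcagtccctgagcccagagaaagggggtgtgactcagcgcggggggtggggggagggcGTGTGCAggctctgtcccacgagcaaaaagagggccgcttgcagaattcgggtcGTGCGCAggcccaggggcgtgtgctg
The *Mt1* window holds 3 matches, all near the annotated start site, and the *Mt2* window 4, spread along it. Number and place depend on where RefSeq sets the start site, which was not checked for either gene. The 2 windows may therefore not cover matching parts of the promoters, and no link of the matches to the calls was tested. Either core was found in 25.7% of all windows, and 1.97% held at least 3 matches. The antioxidant response element core of *Mt2* given above has no counterpart within the *Mt1* window. Bases outside the windows were not searched, so a core further downstream or upstream of *Mt1* would have been missed.

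Both NADPH oxidase members that could be tested fell. *Nox4*, the oxidase that makes hydrogen peroxide without cytosolic subunits, had 225, 290 and 256 counts in Pdk4fl/fl and 161, 165 and 155 in Pdk4SMKO and fell to 45.5% (16.8 ± 2.31 and 7.63 ± 0.572 CPM, SD, n = 3, adjusted p = 1.65e-04). *Cyba*, the p22phox subunit that NOX1, NOX2 and NOX4 share, had 2064, 2740 and 2799 counts against 1750, 1587 and 1681 and fell to 47.7% (adjusted p = 1.53e-04). The *Cyba* transcript is 758 bases long, and without Pdk4fl/fl replicate 3 or with the trend of gene length removed its log2 fold change was -0.87 and -0.47, under the 2-fold limit. Both *Nox4* and *Cyba* were also under it with upper-quartile factors (-0.92 and -0.86) and with library size alone (-0.53 and -0.46). *Nox1* had 1, 0 and 0 counts against 0, 4 and 2, at or near the limit of 3 counts (0.133 to 0.182 CPM) under which a gene cannot be told from 0 in a library, so no difference was detectable at this depth. This limit covers counting error only.

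Levels of different genes can be compared only per length, as CPM per kb. On this scale *Fth1* was first of the 36 members tested in both genotypes (2876 and 1551 CPM per kb). *Hmox1* went from place 2 to place 9 (2085 and 99.2 CPM per kb) and *Mgst1* from place 27 to place 8 (8.68 and 99.4 CPM per kb). *Sod1*, though it fell, went from place 4 to place 2, and *Mt1* was at place 3 in both. At the other end *Gpx3* was last in Pdk4fl/fl and *Nox4* last in Pdk4SMKO, at 0.0682 and 0.906 CPM per kb. The summed CPM of the 37 members was 10640 to 13610 in Pdk4fl/fl and 4773 to 5445 in Pdk4SMKO. Without *Hmox1* and *Fth1* it was 4224 to 6026 and 3529 to 3752.

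**Figure D4:**
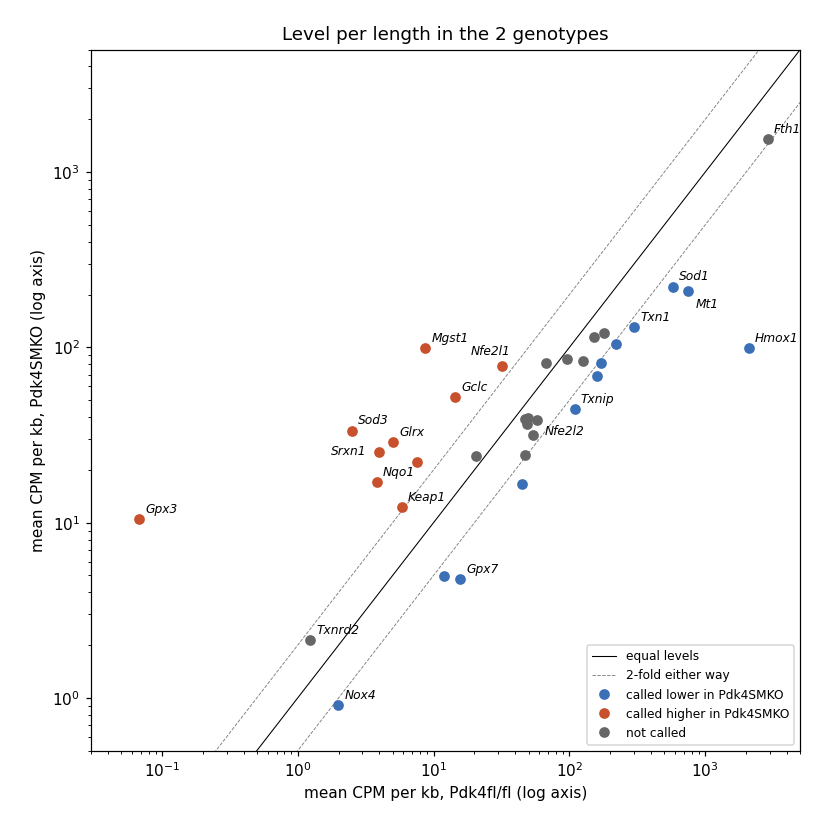
Mean level of the 36 members tested in Pdk4SMKO (vertical) against Pdk4fl/fl (horizontal), in CPM per kb on log axes, with 3 libraries behind each mean; the solid line marks equal levels and the dashed lines a 2-fold difference. Members called higher sit at the left, at low Pdk4fl/fl levels, which are also the base of the fold change. *Hmox1* is the point farthest below the line.

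The members' transcripts are short, with a median length of 2122 bases against 3670 for all genes tested, and short genes tended to be lower in Pdk4SMKO. The 1115 genes of up to 1000 bases had a median log2 fold change of -0.76, and the 4673 of over 5000 bases one of 0.38. The 6 members of up to 1000 bases (*Glrx5*, *Sod1*, *Fth1*, *Mt1*, *Mt2* and *Cyba*) had a median of -0.98. Medians of long members were negative too, at -0.46 for the 10 of 3000 to 5000 bases (all genes 0.19). Among these 10, *Sod3*, *Gclc*, *Keap1* and *Txnrd2* had positive values and the others negative ones. For the 3 of over 5000 bases the median was -1.13, and *Gss* and *Nox4* fell while *Nfe2l1* rose. The rank correlation of length and log2 fold change was 0.168 across the 36 members and 0.136 across all genes. Pdk4fl/fl replicate 3 had short genes 0.27 higher and long genes 0.18 lower (log2) than the other 2 libraries of its genotype, and Pdk4fl/fl replicate 1 went the other way, with short genes 0.16 lower and long genes 0.17 higher. With the trend of length removed from every library, 18 members were called in place of 22. *Sod1*, *Cyba*, *Txn1*, *Keap1* and *Nfe2l1* were lost and *Txn2* was gained.

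The calls of lower members also depend on the scaling. With library size alone in place of TMM, which shifts the median of all genes by 0.61 on the log2 scale, 3 members (*Hmox1*, *Gpx7* and *Mt1*) were still called lower. The same 10 were called higher, with *Txnrd2* added. The sign of *Nfe2l2*, *Gpx1*, *Gpx4*, *Prdx6* and *Glrx5*, which had passed the adjusted p alone, turned under this scaling. With upper-quartile factors *Cyba*, *Nox4*, *Prdx1*, *Prdx2* and *Txn1* were lost and *Txnrd2* was gained. Under all 4 scalings tried (TMM, DESeq2's size factors, upper-quartile factors and library size), *Hmox1*, *Gpx7* and *Mt1* kept their lower calls. The 10 members called higher also kept theirs under all 4.

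Other genes of the same pathways were taken from 9 lists, 104 genes in all, of which 91 were tested. Of these 20 fell and 29 rose, 53.8% in all, again close to the 59.3% of all genes. Glutathione transferases of one class are similar in sequence and may share reads.

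Of 8 NRF2 partners and repressors, 4 fell and 1 rose. *Sqstm1*, whose protein p62 binds KEAP1 and is both a target and an activator of NRF2, had 153772, 207325 and 137066 counts in Pdk4fl/fl and 14478, 13129 and 13477 in Pdk4SMKO. It fell from 10670 ± 622 to 650 ± 13.1 CPM (SD, n = 3, log2 fold change -4.04, adjusted p = 1.45e-08). *Maff*, a small MAF protein, fell by 3.40 on the log2 scale, from 1482 to 140 CPM. *Rbx1*, of the ubiquitin ligase that KEAP1 serves, rose 3.28-fold. *Ftl1*, ferritin light chain, matched by description, had 24965, 36243 and 38657 counts against 3206, 2346 and 2970 and fell by 4.03 on the log2 scale, while its heavy chain partner *Fth1* had -0.89. Of the 7 genes of iron and metal handling 2 fell and 2 rose; *Ccs*, the copper chaperone of SOD1, fell by 1.25 on the log2 scale, beside -1.38 for *Sod1*, and the zinc exporter *Slc30a1* rose by 2.81.

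Of 10 genes of cystine uptake and NADPH supply, 1 fell and 3 rose. The 2 chains of the cystine transporter parted, since *Slc7a11* had 225, 216 and 178 counts in Pdk4fl/fl and 637, 639 and 656 in Pdk4SMKO (log2 fold change 1.19), and *Slc3a2* fell by 2.07. *Idh1* and *G6pdx*, which make NADPH in the cytosol, rose 13.7-fold and 5.74-fold. Of 12 glutathione transferases 2 fell, *Gstt1* (-2.71) and *Gstm5* (-1.14), and 6 rose, *Gstm4* (3.39) and *Gsta4* (2.01) among them. Of 10 quinone, carbonyl and heme enzymes 2 fell and 3 rose. The 2 that fell were the biliverdin reductases *Blvra* (-1.43) and *Blvrb* (-1.33), which act on the product of heme oxygenase, and among those that rose were *Cbr1* (6, 4 and 0 against 313, 325 and 343 counts) and *Ephx1* (2.42).

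Of 13 genes of the thioredoxin fold and relatives of TXNIP, 4 fell and 2 rose. The arrestins *Arrdc4* and *Arrdc3*, which are related to TXNIP, had log2 fold changes of -3.17 and -1.95, and the genotypes did not overlap for either. *Arrdc4* had 933, 1412 and 1065 counts in Pdk4fl/fl and 177, 203 and 135 in Pdk4SMKO. *Map3k5*, whose kinase ASK1 is bound by reduced thioredoxin, had 8, 10 and 4 counts against 396, 345 and 343, and the mitochondrial glutaredoxin *Glrx2* rose by 1.28 on the log2 scale.

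Of 12 further NADPH oxidase genes 5 were tested, of which 2 fell and none rose. *Cybb*, the NOX2 subunit of phagocytes, had 279, 236 and 280 counts in Pdk4fl/fl and 70, 22 and 24 in Pdk4SMKO (log2 fold change -3.28, adjusted p = 2.06e-05), in the direction of *Cd68* and against that of the other 5 macrophage markers tested. *Ncf1*, its cytosolic subunit p47phox, had 16, 30 and 7 counts against 33, 9 and 3 (adjusted p = 0.392). Of 10 genes of peroxide and methionine sulfoxide repair none fell and 7 rose, *Sesn2*, a sestrin, by 1.87 and *Msrb3*, a methionine sulfoxide reductase, by 1.70 on the log2 scale. Of 16 selenoproteins and genes of selenium incorporation 3 fell and 5 rose. *Selenok* and *Selenoh* had log2 fold changes of -3.57 and -2.79, and the selenium carrier *Selenop*, which is secreted, and *Selenoi* had 2.02 and 1.64.

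**Figure D5:**
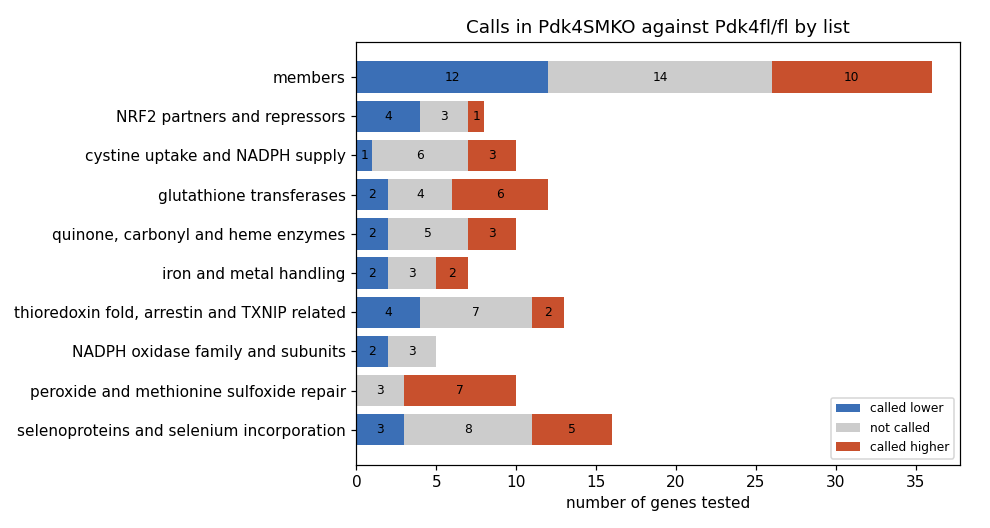
Number of genes called lower, not called and called higher in Pdk4SMKO against Pdk4fl/fl, among those tested, for the 36 members and for 9 lists of related genes. Calls in both directions stand in 8 of the 10 bars, while the NADPH oxidase list holds only lower calls (2 of 5) and the repair list only higher ones (7 of 10), beside 59.3% called in either direction among all genes.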

How the data were processed

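RNA from 6 MASMC cultures, 3 per genotype, was sequenced in bulk as 150-base reads, and groups were taken from the genotype in the labels. The table that the authors deposited holds raw counts of reads for each gene, with 1 column for each library and no normalization. The submitters' notes name GRCm39, whereas the gene identifiers are those of Ensembl for the C57BL/6NJ strain; the aligner, the counting program and the use of strand are not given in the sources used here, and the paper and the labels name different library kits. Promoter windows are from another build and were joined by symbol alone.

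Genes were filtered with filterByExpr, normalized by TMM and tested with the quasi-likelihood test of edgeR 4.0.16 (R 4.3.3, limma 3.58.1), with genotype as the only term and p-values adjusted over 14085 genes (Benjamini-Hochberg). Standard errors were taken from the F statistic. DESeq2 1.42.0, other scalings, other filters, a lowess trend of gene length (span 0.3), a replicate block and leaving out each library were tried in addition. On simulated counts edgeR recovered 195 of 195 changed genes with 2 false calls among 13812 genes. Those changes were all 4-fold and evenly up and down, with a single fixed dispersion for every gene. In the data 59.3% of genes were called and many members fell by little more than 2-fold. The simulation therefore checks that the code runs as meant, and cannot test these calls or the scaling. Nothing in the labels says that the 3 cultures of a genotype came from separate mice, so p-values measure the spread between these libraries. The members and lists, and the ratios, were chosen with earlier results of these data known. Every member was named. Related genes were named up to 2 in each direction per list, by largest change, with at least 10 CPM and no overlap. *Cybb*, *Ncf1*, *Slc7a11* and *Ftl1* were named in addition, and *Bach1* outside this rule after its values were seen. Of marker lists not given in the report, 2 endothelial genes were lower (both of the 2 tested), 1 proliferation gene was higher and 1 lower of 6, and 0 adipocyte genes were called of 1 tested.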

Additional observations from a re-analysis of the deposited data

How the results depend on the processing

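The same 22 members were called with DESeq2's size factors in edgeR, with DESeq2, with no filter on low counts and with a replicate block; the replicate numbers only name the samples (same-numbered libraries correlated at 0.0396, 0.0604 and 0.176 in their deviations, and Pdk4fl/fl replicate 1 not best with its own number), and the block moved the genes called from 8349 to 8281. Library size alone gave 14 members, 3 of them lower (13 related genes lower and 2390 genes lower; 72.1% of all called genes higher in place of 55.3%), and upper-quartile factors 7 lower members and a split of 61.4%. A 4-fold limit gave 7 members (1 lower, 6 higher), 24 related genes (10 and 14) and 4410 genes (1765 and 2645). The adjusted p alone gave 20 lower members and 74 related genes, 37 of them lower. Leaving out 1 library gave 19 to 22 members (9 to 12 lower, 10 higher), 50 to 52 related genes (20 to 22 lower, 30 to 31 higher) and 8448 to 8589 genes (3682 to 3908 lower, 4630 to 4825 higher); without Pdk4fl/fl replicate 3 *Cyba*, *Prdx1* and *Txn1* were lost. At least 10 counts in every library gave 19 members (*Cyba*, *Gpx3* and *Prdx1* lost).

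Signs turned for members that were not called: with library size alone *Nfe2l2* was 0.0226, *Gpx1* 0.0249, *Gpx4* 0.0278, *Prdx3* 0.34, *Prdx5* 0.46, *Prdx6* 0.28, *Glrx5* 0.18 and *Mt2* 0.22; with upper-quartile factors *Prdx5* was 0.0621; with the length trend removed *Glrx5* was 0.0136 and *Mt2* 0.40; leaving out 1 library gave -0.25 to 0.00800 for *Prdx5* and -0.58 to 0.00946 for *Mt2*, the highest without Pdk4fl/fl replicate 3 (all log2). The rank correlation of length and log2 fold change across all genes was 0.136, 0.0831 with no filter, 0.0097 with the trend removed and 0.0923 to 0.146 without 1 library. The cause of these moves was not tested. Depth limits *Nox1*, *Gpx3* in Pdk4fl/fl and *Txnrd2*.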
